A study of Mus musculus with 56 samples.

Results

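Genes of the clotting cascade and its control at the vessel wall were followed in mouse liver: the cofactor genes F5 and F8, the secretion genes Lman1 and Mcfd2, the factor VIII carrier Vwf, and the endothelial and cell-surface genes Thbd, Procr, F3, Tfpi and F2r. These 10 genes, of 45513 listed, were chosen by name for their place in coagulation, and their symbols were matched to Ensembl identifiers with GENCODE vM21 on GRCm38. They and the gene lists below were chosen with earlier results of these data known. Their counts of calls, set beside the share of all genes, are therefore not independent of the data. The study asked what BCR-ABL1 tyrosine kinase inhibitors, drugs against chronic myeloid leukaemia, do to lipids, atherosclerosis and coagulation. Liver mRNA was sequenced from 56 female APOE*3Leiden.CETP mice, 8 in each of 7 groups, which carry the human APOE*3-Leiden and CETP transgenes and so a human-like lipoprotein metabolism. All mice, controls included, were 9 to 14 weeks old at the start and ate a Western-type diet with 15% cacao butter and 0.15% cholesterol, for 3 weeks before and for 16 weeks of treatment. Control mice received the vehicle, 5% carboxymethyl cellulose. Imatinib was given at 150 mg/kg in each of 2 gavages per day, nilotinib at 10 or 30 mg/kg and ponatinib at 3 or 10 mg/kg in 1 gavage per day, and mice outside the imatinib group received a second gavage of vehicle. A reference group drank L-NAME, an inhibitor of nitric oxide synthases, at 0.12 to 0.2% in water.

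Clotting starts when tissue factor, encoded by F3, meets factor VII in plasma, and it is amplified by the cofactors factor V and factor VIII, which speed the activation of thrombin and of factor X. Hepatocytes make factor V and most other clotting proteins, whereas liver sinusoidal endothelial cells are the main source of factor VIII. Both cofactors leave the endoplasmic reticulum (ER) with the help of a receptor made of Lman1 and Mcfd2, and inherited loss of either partner lowers both cofactors in plasma. Endothelium opposes clotting through thrombomodulin (Thbd) and the endothelial protein C receptor (Procr), which turn thrombin towards protein C activation, and through the tissue factor pathway inhibitor (Tfpi). F2r encodes protease-activated receptor 1, by which thrombin signals to cells.

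Between 5342379 and 97473341 reads per mouse were assigned to genes, with a median of 7570238. The largest library belonged to a L-NAME mouse and the next held 17996732 reads. Levels are given in CPM, reads of a gene per size of its library, after TMM scaling, a correction for differences in library composition, and the differences are log2 fold changes with their standard error (SE) from edgeR's quasi-likelihood test on all 56 mice. A gene was called at a Benjamini-Hochberg adjusted p below 0.05 over the 14314 genes tested, and all 10 genes were among those. P-values measure the spread between mice. Among uniquely aligned reads, the share outside annotated genes was 7.55 to 8.68% in control mice. Every mouse given nilotinib, ponatinib 10 mg/kg or L-NAME was above that range, as were 6 of 8 imatinib mice and 3 of 8 mice on the low dose of ponatinib. In the groups wholly above it the treatment and this property of the libraries cannot be told apart, and values from a fit with this share as a covariate are given where they end a call of the 10 genes, and mostly as counts of calls kept for gene lists. In the tissue as a whole, fewer cells of a type and less RNA per cell cannot be told apart. The defining hepatocyte markers Alb, Ttr and Apoa1 were among the 12 hepatocyte markers, all of which had reads in every group, and each of the 12 sinusoidal, 12 pan-endothelial and 12 large-vessel endothelial markers also had reads in every group. Calls of the hepatocyte markers against control went both ways. With nilotinib 30 mg/kg 1 was higher and 3 lower, and with L-NAME 1 higher and 4 lower. Ponatinib 10 mg/kg gave 2 higher (Ttr and Apoa1) and 2 lower (Cps1 and Apob). Imatinib gave 3 higher and 2 lower, nilotinib 10 mg/kg 2 lower and ponatinib 3 mg/kg none. In this order 5.77%, 11.8%, 13.1%, 10.3%, 1.41% and 0.0419% of all tested genes were called. With the covariate 1, 2, 1, 2, 0 and 0 of the marker calls held.

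Per kilobase of exon, the secretion and hepatocyte genes stood far above the endothelial genes in control livers. Mcfd2 had the highest level at 102.1 ± 20.1 CPM per kb (mean ± SD, n = 8 mice), followed by F5 at 69.0 ± 7.74 and Lman1 at 31.0 ± 3.84. F2r lay lower at 6.90 ± 2.44 CPM per kb. Between F3 at 2.27 ± 0.50 CPM per kb, Thbd at 2.08 ± 1.08, Tfpi at 1.61 ± 0.74, Procr at 1.19 ± 0.87, F8 at 0.914 ± 0.475 and Vwf at 0.815 ± 0.267, neighbours in the order differed by less than their SD. The number of reads and the spread between mice both bear on how precisely each gene was measured. Over the 56 libraries the median count was 3382 reads of F5, 2102 of Mcfd2 and 1666 of Lman1, but 114 of F2r, 79 of Tfpi, 59.5 of F8 and 17 of Procr. The SE of a log2 fold change against control was 0.10 for F5 and 0.59 to 0.60 for Procr. Changes of a size found for F5 were thus not detectable for Procr in these data. Reads alone did not set the SE, which was 0.42 to 0.43 for Vwf (median 69 reads) and 0.32 to 0.33 for F8.

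**Figure D1:**
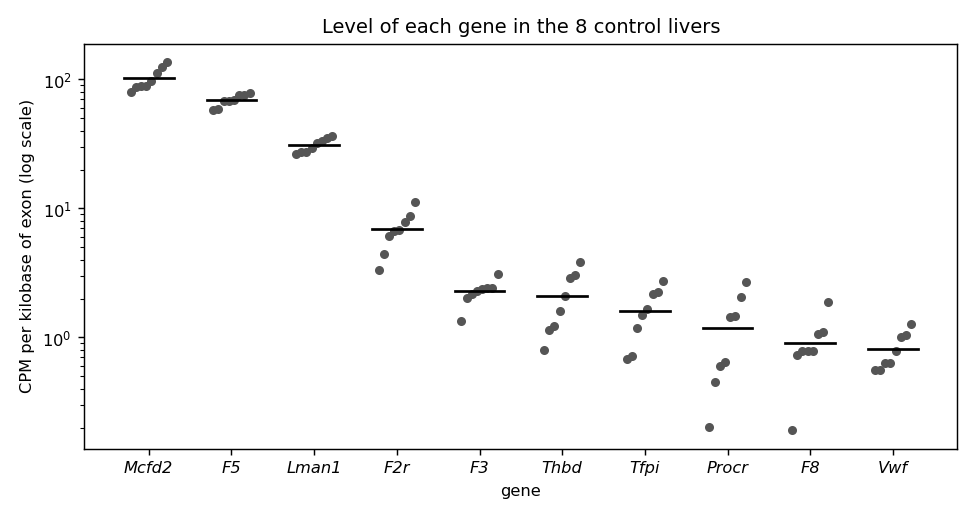
Level of each gene in the 8 control livers, in CPM per kilobase of exon on a log axis. Points are mice and bars are means, which run from 102.1 for Mcfd2 to 0.815 for Vwf.

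Every call among the 10 genes was a lower level in treated mice. With ponatinib 10 mg/kg 3 of the 10 were called (F2r, F8 and Lman1), where 13.1% of all tested genes were called and 5.87% were called lower. With L-NAME 2 were called (F5 and Lman1), against 11.8% of all genes and 6.24% lower. Nilotinib 30 mg/kg gave the same pair of calls, F5 and Lman1, against 5.77% of all genes and 3.43% lower. With imatinib 1 was called (F2r), against 10.3% of all genes and 4.58% lower. No member was called with nilotinib 10 mg/kg, where 1.41% of all genes were, or with ponatinib 3 mg/kg, where 0.0419% were. At an unadjusted level of 0.05, 1 member passed in the former, where 14.2% of all genes did, and 2 in the latter, where 9.96% did. DESeq2 called Lman1 with nilotinib 10 mg/kg and no member with ponatinib 3 mg/kg. The median log2 fold change of the 10 genes was -0.33 with ponatinib 10 mg/kg, -0.36 with L-NAME, -0.28 with imatinib, -0.18 with ponatinib 3 mg/kg, -0.12 with nilotinib 10 mg/kg and -0.01 with nilotinib 30 mg/kg, beside medians of all tested genes between -0.02 and 0.03. The 6 comparisons share the same 8 control mice. At the study's own unadjusted level of 0.01, 4 members passed with ponatinib 10 mg/kg (F5 joining the 3), where 15.0% of all genes did, 2 with L-NAME (14.0%), 2 with nilotinib 30 mg/kg (9.35%), 1 with imatinib (12.9%), 1 with the low dose of nilotinib (Lman1, 5.97%) and 1 with the low dose of ponatinib (F2r, 3.14%). In the test for any difference among the 7 groups, F5 (adjusted p = 0.00023), Lman1 (adjusted p = 0.00074) and F2r (adjusted p = 0.0017) were called, 3 of 10 where 18.7% of all genes were called. Lman1 missed the threshold of this test once the share of reads outside genes was a covariate (adjusted p = 0.051). Tfpi missed it (adjusted p = 0.082) but passed with DESeq2 (adjusted p = 0.033) and without the library lowest in endothelial markers (adjusted p = 0.037).

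**Figure D2:**
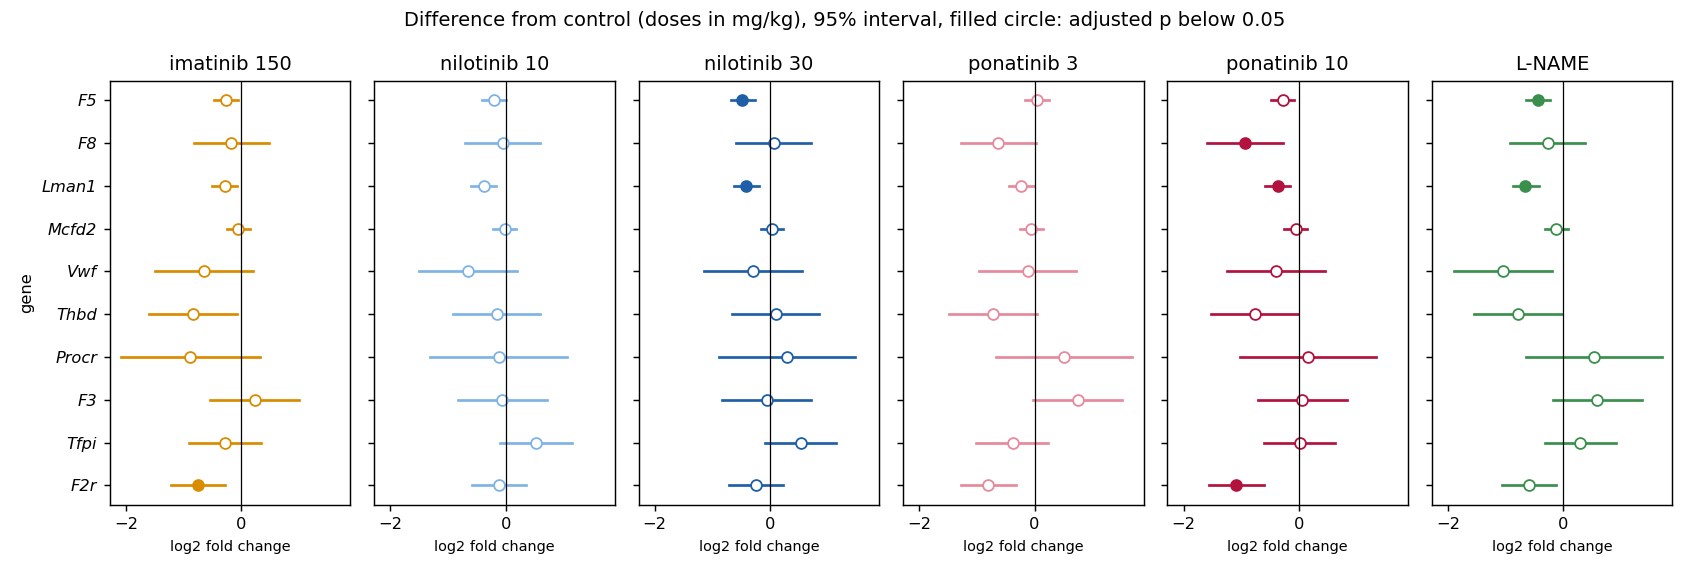
Log2 fold change against control of the 10 genes, a panel for each treated group (8 mice each), with lines for the 95% interval and filled circles for an adjusted p below 0.05. Filled circles all lie left of 0, from -0.37 for Lman1 with ponatinib 10 mg/kg to -1.09 for F2r with the same dose, and the intervals of Procr, F3 and Vwf are several times as wide as those of F5 and Mcfd2.

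F5 mRNA, for the cofactor that hepatocytes secrete, was lower with nilotinib 30 mg/kg and with L-NAME. In control mice its level ran from 430.6 to 586.0 CPM with a median of 510.4. With nilotinib 30 mg/kg it ran from 312.0 to 427.4 CPM with a median of 364.1. All 8 of these mice were below every control mouse, and the log2 fold change was -0.48 (SE 0.10, adjusted p = 0.0029). With L-NAME the lowest, median and highest values were 288.5, 376.8 and 457.6 CPM, and 6 of 8 mice lay below every control (log2 fold change -0.44, SE 0.10, adjusted p = 0.0024). The low dose of ponatinib left the gene close to control, at 482.1 to 595.4 CPM with a median of 522.7 (log2 fold change 0.04, 95% interval -0.16 to 0.25). The high dose gave 356.1 to 546.0 CPM with a median of 391.4 and missed the threshold (-0.28, SE 0.10, adjusted p = 0.055). DESeq2 called the gene at this dose (-0.27, adjusted p = 0.033). Imatinib (329.9 to 559.0 CPM, median 409.0) and nilotinib 10 mg/kg (384.7 to 596.7 CPM, median 426.9) gave log2 fold changes of -0.26 (adjusted p = 0.092) and -0.20 (adjusted p = 0.37). In the order of mean levels, ponatinib 3 mg/kg, control, nilotinib 10 mg/kg, imatinib, ponatinib 10 mg/kg, L-NAME and nilotinib 30 mg/kg, no neighbours differed by more than the larger of their SDs. With the share of reads outside genes as a covariate, the difference was -0.38 (adjusted p = 0.084) with nilotinib 30 mg/kg and -0.33 (adjusted p = 0.12) with L-NAME, neither past the threshold. Without the covariate, the hepatocyte marker Apob was also called lower in these groups (-0.41 and -0.46, adjusted p = 0.029 and 0.0059). Another, Apoa1, was called higher (0.58 and 0.81, adjusted p = 0.039 and 0.0014). Of these marker calls only that of Apoa1 with L-NAME held with the covariate (adjusted p = 0.019). F5 lies at chr1:164151838-164220277 on the plus strand and overlaps Gm16548, an antisense lincRNA, and the pseudogene Gm16588. Whether the counting used strand is not given in the sources used here, so reads of Gm16548 cannot be told from those of F5 where they overlap.

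The start regions of F5 and F2r are shown because these genes carried the calls of the cofactor and the receptor, and they differ in make-up. Each sequence, from RefSeq on GRCm38.p6, runs from 250 to 22 bases before the RefSeq start, 5′ to 3′ on the strand of the gene, F5 at chr1:164151585-164151813 (plus) and F2r at chr13:95618488-95618716 (minus). Capitals mark matches to any of 5 motifs searched on both strands, which were the TATA box TATAAA, the CAAT box CCAAT, the GC box GGGCGG, the ETS core CCGGAA and the GATA core AGATAA.
F5: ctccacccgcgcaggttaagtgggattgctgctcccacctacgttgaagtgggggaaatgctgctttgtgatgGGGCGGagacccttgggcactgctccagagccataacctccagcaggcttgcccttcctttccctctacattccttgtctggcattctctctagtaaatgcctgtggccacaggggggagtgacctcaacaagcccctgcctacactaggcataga
F2r: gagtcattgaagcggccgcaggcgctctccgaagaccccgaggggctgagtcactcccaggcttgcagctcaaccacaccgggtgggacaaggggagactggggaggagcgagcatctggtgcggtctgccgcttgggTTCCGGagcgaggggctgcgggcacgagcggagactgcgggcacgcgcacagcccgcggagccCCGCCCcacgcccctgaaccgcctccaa
The F5 window held 4 CG pairs and 56.8% G or C, and its capitals are the GC box GGGCGG, on the strand of the gene. The F2r window held 22 CG pairs and 70.7% G or C, with GGGCGG and CCGGAA both on the opposite strand. Over 32851 RefSeq windows of this length the medians were 5 CG pairs and 52.0%, and GGGCGG was present in 29.7%, CCGGAA in 10.2%, TATAAA in 11.7%, CCAAT in 32.0% and AGATAA in 9.47% of them. The matches describe these letters and no binding was measured. Of the 10 genes 7 had a window in the table used, without Vwf, Thbd and Lman1.

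The cofactor secretion receptor changed in its lectin partner but not detectably in the other partner. Lman1, which binds the sugars of the cargo, ran from 231.9 to 319.2 CPM in control mice with a median of 273.2. With L-NAME it ran from 144.4 to 214.2 CPM with a median of 169.3, and the groups did not overlap (log2 fold change -0.66, SE 0.11, adjusted p = 7.5e-05). Nilotinib 30 mg/kg gave 165.1 to 249.2 CPM with a median of 210.5, and 7 of 8 mice were below every control (-0.41, SE 0.11, adjusted p = 0.016). With ponatinib 10 mg/kg 7 of 8 mice were below every control and the other mouse above every control, at 165.0 to 329.8 CPM with a median of 206.2 (-0.37, SE 0.11, adjusted p = 0.018). The remaining groups had estimates in the same direction without a call. These were -0.38 with nilotinib 10 mg/kg (175.5 to 241.6 CPM, adjusted p = 0.057), -0.29 with imatinib (185.8 to 242.9 CPM, adjusted p = 0.084) and -0.23 with ponatinib 3 mg/kg (179.6 to 278.0 CPM, adjusted p = 0.48). Control mice had the highest mean of all groups and L-NAME mice the lowest, each apart from its neighbour by more than the larger SD, while the 5 groups between were not separated in this way. With the share of reads outside genes as a covariate the L-NAME difference remained past the threshold (-0.55, adjusted p = 0.013), and those of nilotinib 30 mg/kg (-0.32, adjusted p = 0.23) and ponatinib 10 mg/kg (-0.26, adjusted p = 0.28) did not. The call with ponatinib 10 mg/kg was also lost in a fit of only these 16 mice (-0.36, adjusted p = 0.076).

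Mcfd2, the calcium-binding partner, was level across the study. Its group means lay between 265.6 and 295.6 CPM, the median was 263.9 CPM in control mice (224.8 to 383.6) and 270.4 with L-NAME (217.9 to 298.4), and its groups overlapped throughout. The 6 log2 fold changes ran from -0.12 to 0.03 with a SE of 0.10. In the group with the lowest Lman1, L-NAME, the 95% interval of the Mcfd2 difference was -0.32 to 0.08, and it does not reach the Lman1 estimate of -0.66. Lman1 lies on chromosome 18 at 65980738 to 66022580 and Mcfd2 on chromosome 17 at 87254443 to 87265935, both on the minus strand.

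**Figure D3:**
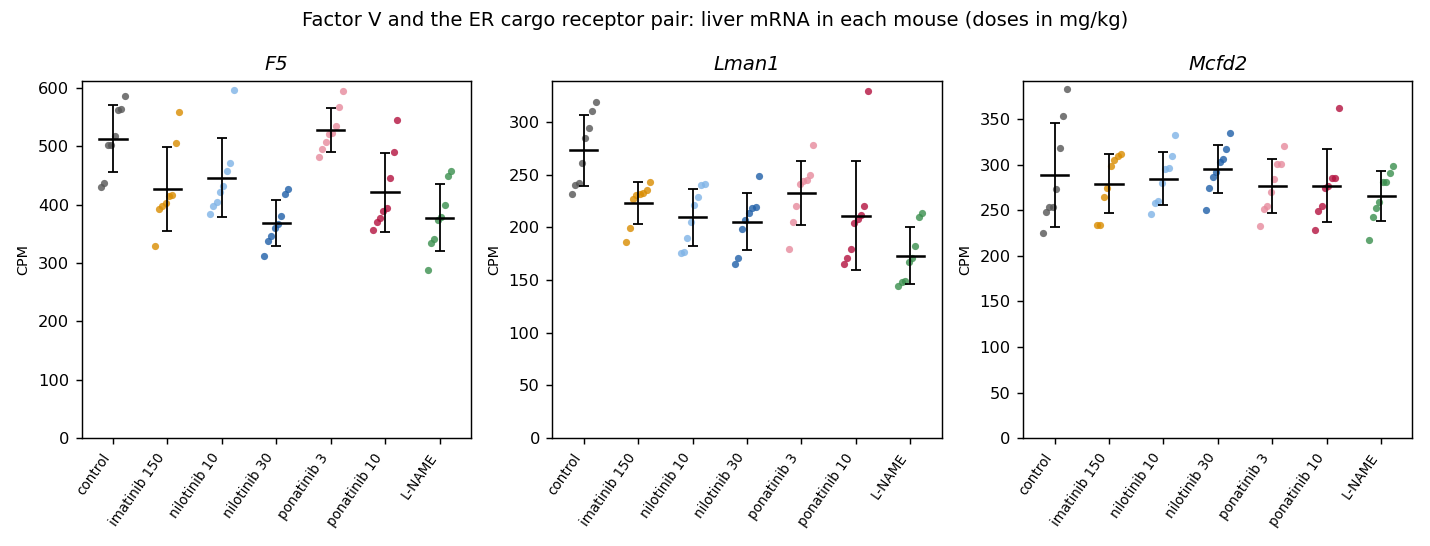
CPM of F5, Lman1 and Mcfd2 in each mouse (points, 8 per group) with mean and SD (bars), from 0. Lman1 points of L-NAME mice (144.4 to 214.2) lie below all control points (231.9 to 319.2), F5 points of nilotinib 30 mg/kg below all control points, and Mcfd2 shows no group apart.

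Among 24 other genes of ER to Golgi transport, which encode cargo receptors and parts of the COPII vesicle coat, 9 were lower and none higher with L-NAME, and 8 were lower and none higher with ponatinib 10 mg/kg. Over all tested genes 6.24% were called lower with L-NAME and 5.87% with ponatinib 10 mg/kg. The Sec23 and Sec24 proteins form the inner coat that collects cargo and Sec31a the outer cage. Sec31a fell from 208.4 ± 29.4 to 127.5 ± 24.5 CPM with L-NAME (mean ± SD, n = 8 each, log2 fold change -0.71, adjusted p = 0.00011). Sec23b fell from 57.4 ± 18.6 to 27.2 ± 6.72 CPM in the same group (-1.08, adjusted p = 0.00083). Sec23a fell from 102.9 ± 9.81 to 65.0 ± 17.6 CPM with ponatinib 10 mg/kg (-0.66, adjusted p = 0.00053), and Sec24d from 102.5 ± 26.5 to 58.1 ± 22.0 CPM (-0.82, adjusted p = 0.0067). Imatinib gave 2 lower and 1 higher, the higher gene being Sar1b, the GTPase that starts coat assembly, at 253.3 ± 37.0 against 178.1 ± 12.0 CPM (0.51, adjusted p = 0.00051). Both doses of nilotinib gave 2 lower genes, Sec23a at each dose with Lman2 at 10 mg/kg and Sec31a at 30 mg/kg, and ponatinib 3 mg/kg gave no call. The share of all tested genes called was 10.3% with imatinib, 1.41% and 5.77% with nilotinib 10 and 30 mg/kg and 0.0419% with ponatinib 3 mg/kg. The median log2 fold change of the list was -0.19 with L-NAME, -0.08 with ponatinib 10 mg/kg and -0.05, -0.03, -0.04 and -0.15 with imatinib, nilotinib 10 and 30 mg/kg and ponatinib 3 mg/kg. In the fit with the covariate, 5 of the 9 genes stayed lower with L-NAME (Sec31a, Sec23b, Golph3, Sec23a and Sec24d) and 1 of the 8 with ponatinib 10 mg/kg (Sec23a, -0.55, adjusted p = 0.031). Sec24d missed the threshold in the latter group (-0.71, adjusted p = 0.11), Sar1b stayed higher with imatinib (0.53, adjusted p = 0.0015), and none was called with either dose of nilotinib.

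F8, the cofactor gene of sinusoidal endothelium, was lower with ponatinib 10 mg/kg, by a margin at the edge of the threshold. Control mice ran from 1.89 to 18.5 CPM with a median of 7.80, and mice given ponatinib 10 mg/kg from 0.403 to 7.62 CPM with a median of 5.43, the lowest resting on 3 reads. The groups overlapped, with all 8 treated mice below the control median and 1 below every control (log2 fold change -0.94, SE 0.33, adjusted p = 0.047). The call was kept in 1 of 9 alternatives, DESeq2 (adjusted p = 0.025), and lost in the other 8, with adjusted p from just at 0.05 to 0.14, while the estimate stayed between -1.12 and -0.85. With ponatinib 3 mg/kg the range was 3.68 to 8.55 CPM with a median of 5.79 (-0.63, SE 0.33, adjusted p = 0.53). Mice given nilotinib 10 mg/kg (4.33 to 10.8 CPM, median 9.13), nilotinib 30 mg/kg (5.27 to 13.9 CPM, median 9.46), imatinib (2.79 to 15.2 CPM, median 8.15) and L-NAME (2.29 to 11.2 CPM, median 6.99) differed from control by -0.05, 0.06, -0.17 and -0.27 on the log2 scale, which missed the threshold. F8 lies at chrX:75172715-75382615 on the minus strand and overlaps Fundc2 on the other strand and the pseudogenes Gm6039 and Gm8522, so its count is uncertain where reads of these genes meet it.

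Marker RNA of sinusoidal endothelium had its lowest medians in the ponatinib groups, which also had the lowest F8, without a called marker. The summed level of 12 markers ran from 253.9 to 804.6 CPM in control mice (median 432.2), from 241.7 to 496.9 with ponatinib 3 mg/kg (median 342.2) and from 162.3 to 485.2 with ponatinib 10 mg/kg (median 388.1). It ran from 521.8 to 639.4 with nilotinib 10 mg/kg, from 510.1 to 717.5 with nilotinib 30 mg/kg, from 454.2 to 702.1 with imatinib and from 431.3 to 736.6 with L-NAME. Of the 12 markers 0 were called against control in any group, all 12 had estimates below 0 at both ponatinib doses (list medians -0.51 for the low and -0.43 for the high dose), and no marker was without reads in a group. After subtracting group means, log2 F8 and the log2 marker sum had a Pearson r of 0.53 and a Spearman coefficient of 0.63 over 56 mice (r = 0.51 without the 2 mice farthest out). The points share their libraries, and F8, with a median of 59.5 reads, carries counting error. The part of sinusoidal RNA in the F8 difference was not tested. A library of the ponatinib 10 mg/kg group stood apart, with 162.3 CPM of these markers against 298.4 to 485.2 in the other 7, 90.4 CPM of pan-endothelial markers against 210.8 to 346.7, and 248.0 CPM of stellate markers against 723.7 to 986.6. Without it the F8 difference was -0.85 (adjusted p = 0.086).

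**Figure D4:**
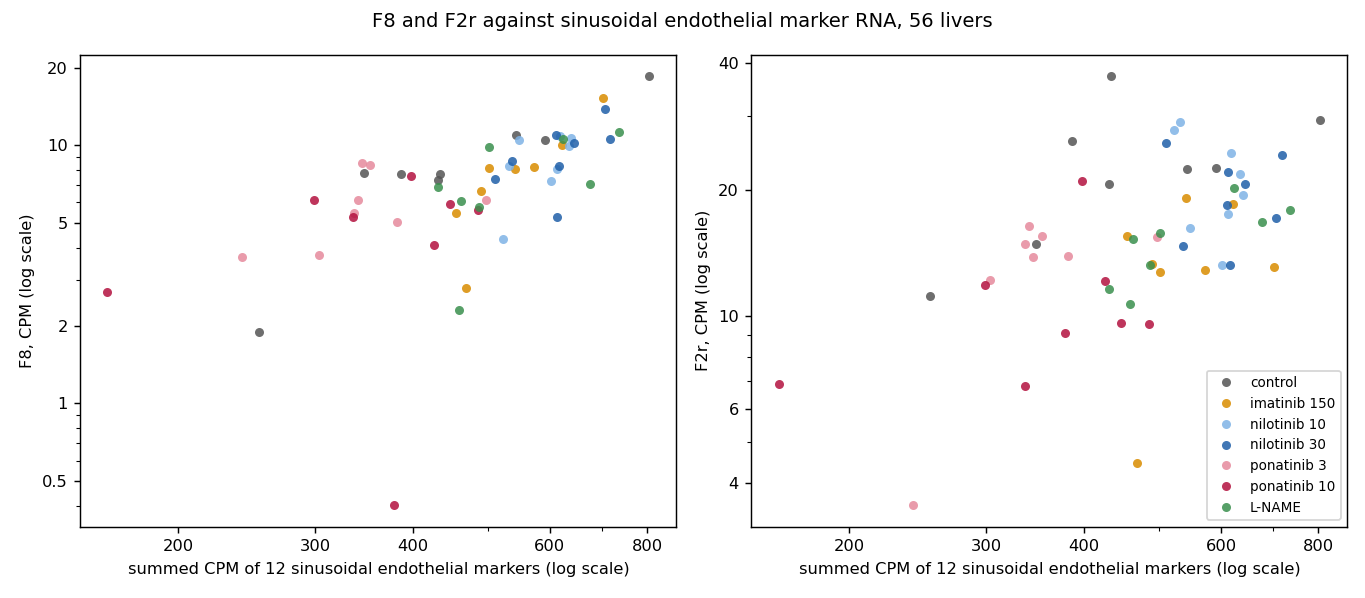
CPM of F8 and F2r against the summed CPM of 12 sinusoidal endothelial markers in 56 livers, all axes logarithmic, coloured by group. F8 rises with the marker sum across mice (r = 0.53 within groups). For F2r r was 0.46, and 7 of 8 mice given ponatinib 10 mg/kg lie at 6.82 to 12.1 CPM, as do some control and L-NAME mice. F2r was not adjusted for the marker sum.

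Vwf, which carries factor VIII in plasma and tethers platelets, had its lowest group mean with L-NAME but did not pass the test. Control mice ran from 9.02 to 20.5 CPM with a median of 11.4, and L-NAME mice from 0.900 to 10.8 CPM with a median of 6.81. The median with ponatinib 10 mg/kg was close to that, at 6.78 CPM. Of the 8 L-NAME mice 6 were below every control (log2 fold change -1.04, SE 0.43, adjusted p = 0.11), and a fit of these 16 mice alone called the gene. All 6 estimates were below 0, from -1.04 to -0.12, and the spread was wide, with values of 0.939 to 23.4 CPM with ponatinib 10 mg/kg alone. A single mouse given nilotinib 10 mg/kg had 0 reads of Vwf, which allows up to 0.540 CPM at 3 counts (counting error only).

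F2r, the thrombin receptor gene, showed the largest called change of the 10 genes and was called lower with ponatinib 10 mg/kg and with imatinib. Control mice ran from 11.2 to 37.2 CPM with a median of 22.5, a mean of 23.0 ± 8.14 (SD, n = 8). Ponatinib 10 mg/kg gave 6.82 to 21.0 CPM with a median of 9.60. Of these mice 5 of 8 were below every control and all 8 below the control median (log2 fold change -1.09, SE 0.24, adjusted p = 0.0012). Imatinib gave 4.46 to 19.1 CPM with a median of 13.2, again with all 8 mice below the control median (-0.75, SE 0.24, adjusted p = 0.030). With ponatinib 3 mg/kg the range was 3.54 to 16.4 CPM with a median of 14.4, and the estimate of -0.81 (SE 0.24) had an unadjusted p of 0.0011 and an adjusted p of 0.18 in edgeR's quasi-likelihood test, in a comparison with 6 called genes in all. L-NAME gave 10.7 to 20.2 CPM with a median of 15.5 (-0.60, SE 0.23, adjusted p = 0.088), and a fit of only the L-NAME and control mice called it (-0.59, adjusted p = 0.039). All 8 mice given ponatinib 3 mg/kg and all 8 given L-NAME were also below the control median. Nilotinib at 10 mg/kg (13.2 to 28.9 CPM, median 20.6) and 30 mg/kg (13.2 to 25.8 CPM, median 19.5) gave -0.12 (95% interval -0.59 to 0.35) and -0.24 (-0.71 to 0.23). In the order of means, control, nilotinib 10 and 30 mg/kg, L-NAME, imatinib, ponatinib 3 and 10 mg/kg, no neighbours differed by more than the larger SD. The ponatinib 10 mg/kg call held in 9 of 9 alternatives, with adjusted p of 0.00031 to 0.018 and estimates of -1.10 to -1.01. That of imatinib was lost with the share of reads outside genes as a covariate (-0.76, adjusted p = 0.068) and without the 3 libraries above 14% of such reads (-0.74, adjusted p = 0.054).

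Stellate and endothelial marker RNA moved with F2r across mice. After subtracting group means, F2r had r = 0.55 and a Spearman coefficient of 0.58 with the sum of 12 stellate markers (r = 0.55 without the 2 mice farthest out) and r = 0.46 and a Spearman coefficient of 0.33 with the sum of 12 sinusoidal markers, over 56 mice. The stellate sum ran from 667.6 to 1334 CPM in control mice, from 248.0 to 986.6 with ponatinib 10 mg/kg, from 529.5 to 957.8 with ponatinib 3 mg/kg and from 625.0 to 909.7 with imatinib. Of these markers 2 were lower in the imatinib and the high ponatinib group, the collagen genes Col1a1 (12.5 ± 4.93 CPM with imatinib and 14.8 ± 8.03 with ponatinib 10 mg/kg, against 101.4 ± 74.6 in control mice) and Col3a1, and 1 was higher, Ecm1. Over all tested genes 4.58% were called lower with imatinib and 5.87% with ponatinib 10 mg/kg. Both collagen calls held when the share outside genes was a covariate, and the Ecm1 calls did not. With ponatinib 3 mg/kg Col1a1 was the only stellate marker called, lower at 20.5 ± 23.3 CPM. The part of stellate or endothelial RNA in the F2r difference was not tested. Without the library that stood low in endothelial markers the F2r difference with ponatinib 10 mg/kg was -1.01 (adjusted p = 0.0031).

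Of 9 other genes of thrombin receptor signalling 7 could be tested. Gna13, a G protein subunit that such receptors activate, was lower with ponatinib 10 mg/kg than in control mice (28.8 ± 6.09 against 43.2 ± 7.42 CPM, n = 8 each, log2 fold change -0.58, adjusted p = 0.0090), and than with ponatinib 3 mg/kg (-0.58, adjusted p = 0.048). Arrb2, which ends receptor signalling, was higher with L-NAME (38.8 ± 6.87 against 21.9 ± 4.92 CPM, 0.82, adjusted p = 0.0022) and with nilotinib 30 mg/kg (0.63, adjusted p = 0.034), and Gna11 was lower with L-NAME (-0.42, adjusted p = 0.0077). No gene of the list was called with imatinib, nilotinib 10 mg/kg or ponatinib 3 mg/kg, where 10.3%, 1.41% and 0.0419% of all tested genes were. With ponatinib 10 mg/kg, L-NAME and nilotinib 30 mg/kg the shares were 13.1%, 11.8% and 5.77%, and between the ponatinib doses 1.39%. None of the list's calls against control or the lower dose held in the fit with the covariate, at adjusted p of 0.16 for Gna13 with ponatinib 10 mg/kg and 0.13 for Arrb2 with L-NAME. Gna13 was also lower with ponatinib than with nilotinib at 10 mg/kg (-0.64, adjusted p = 0.020). That call held in the fit with the covariate (-0.60, adjusted p = 0.045).

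The remaining anticoagulant and initiator genes at the vessel wall gave no call in the edgeR comparisons made, at levels that leave wide intervals. Those set each treated group against control, the doses within a compound, and ponatinib against nilotinib at 10 mg/kg. Other pairs of groups were not tested. Thbd ran from 2.96 to 14.3 CPM in control mice with a median of 6.87. It ran from 2.29 to 6.02 CPM with imatinib, with all 8 mice below the control median (log2 fold change -0.84, SE 0.38, adjusted p = 0.17). L-NAME (1.41 to 8.46 CPM, -0.78), ponatinib 10 mg/kg (1.31 to 8.53 CPM, -0.77) and ponatinib 3 mg/kg (1.06 to 10.1 CPM, -0.72) gave estimates of like size, at adjusted p of 0.19, 0.19 and 0.53. Both doses of nilotinib stayed near control, at -0.15 and 0.10 with intervals of -0.91 to 0.60 and -0.66 to 0.85. Tfpi, the inhibitor of the tissue factor complex, ran from 3.74 to 15.0 CPM in control mice with a median of 8.62, and its highest group means were those of nilotinib 10 mg/kg (5.94 to 22.1 CPM, median 11.8) and 30 mg/kg (9.51 to 18.0 CPM, median 11.5). All 8 mice of the higher dose and 7 of 8 of the lower lay above the control median (0.53, SE 0.31, adjusted p = 0.37 and 0.45). Ponatinib 3 mg/kg had the lowest Tfpi mean, 6.73 ± 3.75 CPM (-0.38, 95% interval -1.01 to 0.24).

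F3, the tissue factor gene, ran from 3.38 to 7.90 CPM in control mice with a median of 5.90. Its highest group was ponatinib 3 mg/kg, at 4.02 to 18.2 CPM with a median of 8.88, where 4 of 8 mice were above every control (log2 fold change 0.75, SE 0.38, adjusted p = 0.51). With L-NAME 3 of 8 were above every control (5.42 to 18.0 CPM, 0.59, adjusted p = 0.37), and with ponatinib 10 mg/kg and both doses of nilotinib the estimates were 0.06 and -0.06. Procr had the fewest reads, with 0.412 to 5.43 CPM in control mice and a median of 2.11. Its estimates ran from -0.88 with imatinib (0 to 3.29 CPM, 95% interval -2.09 to 0.32) to 0.53 with L-NAME (1.33 to 6.67 CPM, -0.65 to 1.70), and the 2 mice with 0 reads, given imatinib and nilotinib 10 mg/kg, allow up to 0.420 and 0.392 CPM at 3 counts. Across mice Procr had r = 0.54 and a Spearman coefficient of 0.65 with the sum of 12 Kupffer cell and macrophage markers over 56 mice after subtracting group means (r = 0.57 without the 2 mice farthest out). By the same measure r was 0.55 (Spearman 0.61) with the sum of monocyte and neutrophil markers and 0.42 (0.44) with that of platelet markers. With imatinib, where the Procr estimate was lowest, the macrophage sum ran from 633.3 to 1253 CPM against 1008 to 1902 in control mice. The monocyte and neutrophil sum ran from 102.0 to 215.6 CPM against 152.5 to 446.5. Of the 12 macrophage markers 4 were lower with imatinib, 1 of them (Cd5l) also with the share of reads outside genes as a covariate. Over all tested genes 4.58% were called lower with imatinib. The part of macrophage, monocyte, neutrophil or platelet RNA in the Procr values was not tested.

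**Figure D5:**
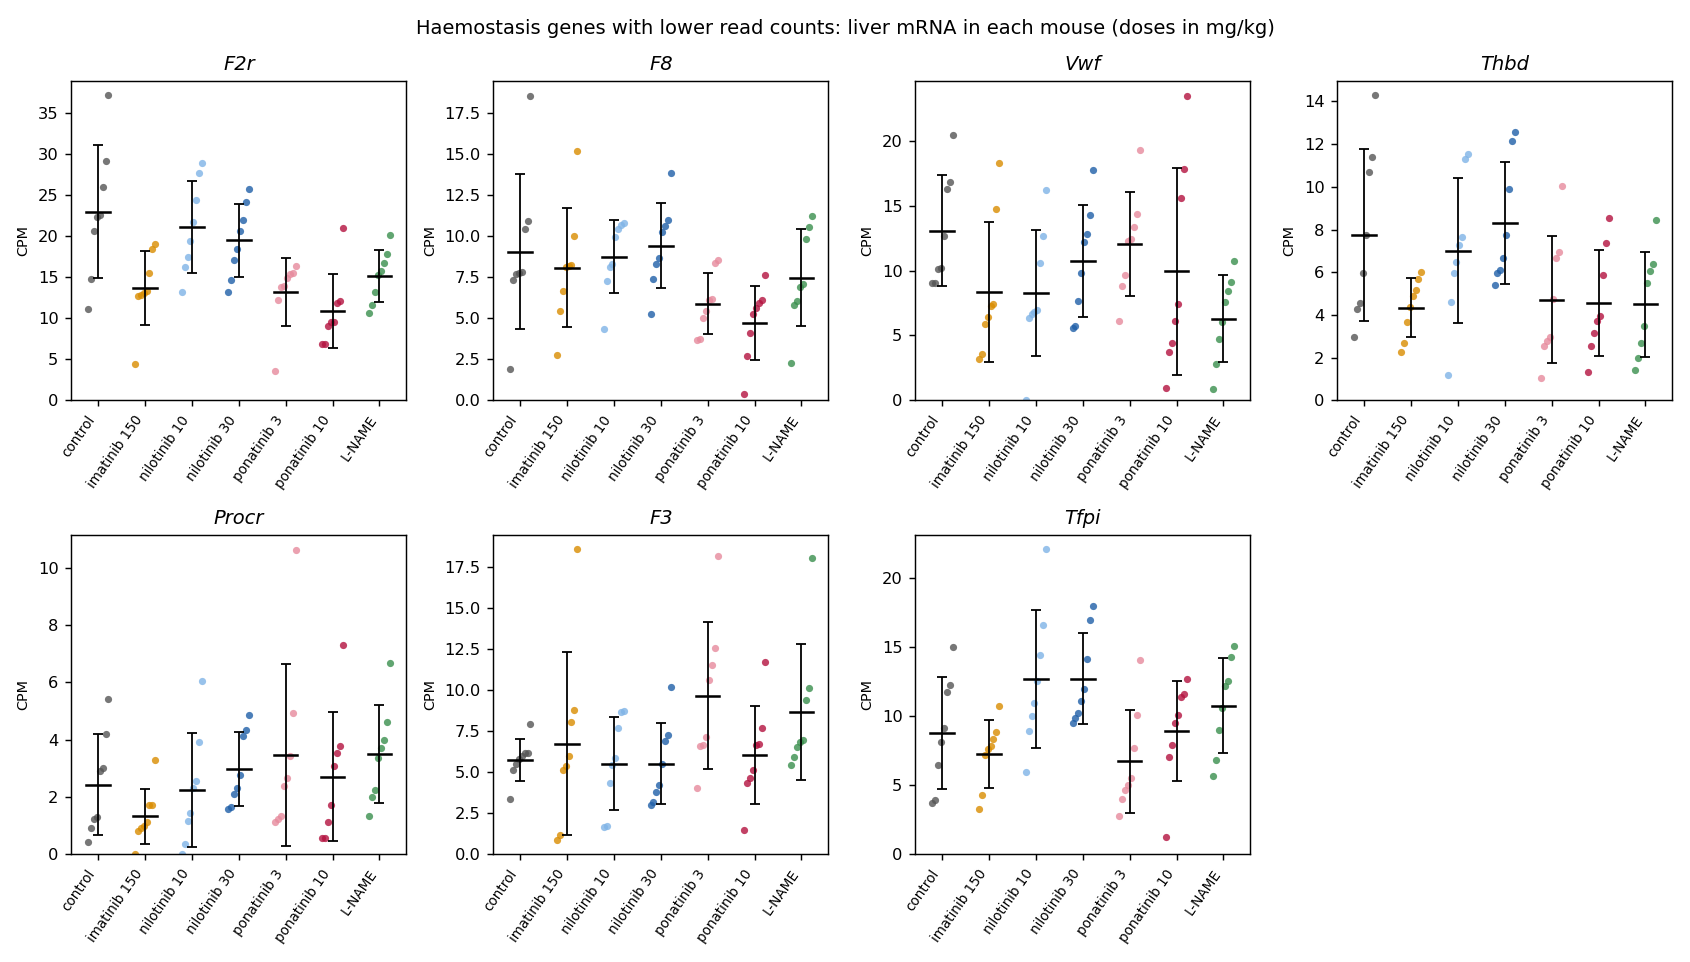
CPM of the 7 genes with lower read counts in each mouse (points, 8 per group) with mean and SD (bars), each panel from 0 on its own axis. F2r falls from a mean of 23.0 CPM in control mice to 10.9 with ponatinib 10 mg/kg, and in every panel, F2r included, the SD bars of each treated group overlap those of control.

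The compounds could be compared at a matched nominal dose for 1 pair, ponatinib and nilotinib at 10 mg/kg in 1 gavage per day. This was the high dose of ponatinib but the low dose of nilotinib. Plasma exposure was not matched, since the paper reports a higher value for nilotinib than for ponatinib at this dose. It describes exposure as similar to that of patients for the low dose of each drug. A comparison at equal exposure was not possible. F2r was lower in the ponatinib mice, at 10.9 ± 4.52 against 21.1 ± 5.59 CPM (n = 8 each, log2 fold change -0.96, SE 0.24, adjusted p = 0.020), and 7 of 8 ponatinib mice were below every nilotinib mouse. It was the 1 member called of 10, where 2.06% of all genes were called and 1.03% called lower. F8 was 4.72 ± 2.27 against 8.74 ± 2.22 CPM and missed the threshold (-0.89, 95% interval -1.55 to -0.22, adjusted p = 0.14), though past the unadjusted 0.01 level, as 6.73% of all genes were. Lman1 (0.01, interval -0.21 to 0.23), Mcfd2 (-0.04, -0.24 to 0.16) and F5 (-0.08, -0.29 to 0.12) were close in the 2 groups, and the intervals exclude differences as large as those of F2r. A fit of these 16 mice alone kept the F2r estimate (-0.97) but not the call (adjusted p = 0.082). In the same comparison 5 of 12 sinusoidal markers were lower with ponatinib, among them Bmp2 (9.00 ± 3.14 against 19.2 ± 7.25 CPM) and Stab2 (55.4 ± 14.8 against 86.0 ± 10.4 CPM). Of 12 stellate markers 3 were lower, Col1a1 (14.8 ± 8.03 against 64.9 ± 58.5 CPM, -2.13, adjusted p = 0.011), Col3a1 (53.7 ± 30.0 against 146.6 ± 101.4 CPM, -1.45, adjusted p = 0.025) and the retinol-esterifying enzyme gene Lrat (31.9 ± 14.4 against 52.1 ± 14.2 CPM, -0.71, adjusted p = 0.037), and 10 of the 12 had estimates below 0. The part of sinusoidal or stellate RNA in the F2r and F8 values was not tested. Only the ponatinib pair and the nilotinib pair allow doses to be compared within a compound. No member was called between ponatinib 10 and 3 mg/kg, where 1.39% of all genes were, nor between nilotinib 30 and 10 mg/kg, where 0.0% were. F5 was the only member past the unadjusted 0.01 level in each, where 5.78% and 1.32% of all genes were. The differences were -0.33 for ponatinib (SE 0.10, adjusted p = 0.089) and -0.27 for nilotinib (SE 0.10, adjusted p = 0.75), and DESeq2 called the former (adjusted p = 0.031). F2r differed by -0.28 between the ponatinib doses (95% interval -0.76 to 0.20) and by -0.12 between the nilotinib doses (-0.59 to 0.35).

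The other clotting genes of hepatocytes gave calls in both directions. Of 25 measured and tested genes, 7 were higher and 2 lower with ponatinib 10 mg/kg, where 13.1% of all tested genes were called and 5.87% were called lower. Proc, which encodes protein C, the substrate of the thrombomodulin pathway, rose from 484.6 ± 84.1 to 723.4 ± 116.8 CPM (n = 8 each, log2 fold change 0.58, adjusted p = 0.00057), and the kininogen gene Kng1 from 2083 ± 546 to 3098 ± 726 CPM (0.57, adjusted p = 0.0015). Vkorc1, the vitamin K reductase needed to make clotting factors functional, rose from 34.0 ± 6.76 to 51.2 ± 13.5 CPM (0.59, adjusted p = 0.0050). Imatinib gave 2 higher and 4 lower genes, with Proc (0.47, adjusted p = 0.0057) and Vkorc1 (0.64, adjusted p = 0.0034) again higher and Serpind1 (-0.39, adjusted p = 0.016) and Pros1 (-0.53, adjusted p = 0.014) lower. Pros1 was also lower with ponatinib 10 mg/kg (-0.49, adjusted p = 0.020). L-NAME gave 2 higher, again Proc (0.49, adjusted p = 0.0031) and Vkorc1 (0.53, adjusted p = 0.013), and 3 lower. Among the latter was Ggcx, the carboxylase of vitamin K-dependent factors (-0.57, adjusted p = 0.0095). Nilotinib 30 mg/kg gave 1 higher, Vkorc1, and 2 lower, F13b and Serpind1. None was called at either low dose. The share of all tested genes called was 10.3% with imatinib, 11.8% with L-NAME and 5.77% with nilotinib 30 mg/kg. The list's median log2 fold change was 0.06 with ponatinib 10 mg/kg and -0.16 with nilotinib 30 mg/kg. In the covariate fit 3 of the 9 calls with ponatinib 10 mg/kg held, Kng2 and Kng1 (both adjusted p = 0.0098) and Proc (0.46, adjusted p just under 0.05), and 1 of the 6 with imatinib, Vkorc1 (0.58, adjusted p = 0.025). None held with L-NAME or nilotinib 30 mg/kg.

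Of 13 fibrinolysis and clotting genes made mainly outside hepatocytes, 3 were lower with imatinib and 3 with ponatinib 10 mg/kg, none was higher, and none was called in the other groups. Over all tested genes 4.58% were called lower with imatinib and 5.87% with ponatinib 10 mg/kg. Anxa5, a phospholipid-binding protein that covers procoagulant surfaces, fell from 207.3 ± 77.0 to 114.2 ± 29.6 CPM with ponatinib 10 mg/kg (log2 fold change -0.86, adjusted p = 0.0022). Anxa2, a cell-surface partner of plasminogen activation, was lower with both drugs, at 24.5 ± 7.54 with imatinib and 24.5 ± 9.27 with ponatinib against 46.8 ± 28.4 CPM. Plat, the tissue plasminogen activator gene, was lower with both at a low level, at 0.478 ± 0.590 and 0.515 ± 0.578 against 3.19 ± 2.32 CPM. Plau, the urokinase gene, was lower with imatinib (3.84 ± 2.00 against 11.8 ± 6.13 CPM, -1.62, adjusted p = 0.039). Of 14 endothelial activation genes and anticoagulant regulators, 2 were lower with imatinib, the ADP-degrading enzyme gene Entpd1 (7.42 ± 2.96 against 19.1 ± 7.20 CPM, -1.37, adjusted p = 0.0023) and the adhesion molecule gene Vcam1 (27.5 ± 3.14 against 50.7 ± 16.7 CPM, -0.89, adjusted p = 0.022). None of the 14 was called in another group, although 13 had estimates below 0 with ponatinib 10 mg/kg (median -0.46). The Entpd1 call held with the covariate (-1.21, adjusted p = 0.020), whereas Vcam1 (-0.82, adjusted p = 0.079) and the 3 fibrinolysis and clotting genes of each drug were not called.

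Receptors that clear factor VIII and its carrier from plasma changed in opposite directions. Of 9 measured genes 6 could be tested. Lrp1, a scavenger receptor for factor VIII, was lower with imatinib (655.0 ± 157.7 against 1055 ± 218 CPM, n = 8 each, log2 fold change -0.69, adjusted p = 0.00068), nilotinib 10 mg/kg (-0.55, adjusted p = 0.027), nilotinib 30 mg/kg (-0.66, adjusted p = 0.0020), ponatinib 10 mg/kg (-0.51, adjusted p = 0.0088) and L-NAME (-0.52, adjusted p = 0.0081). Asgr1, a subunit of the asialoglycoprotein receptor, was higher with imatinib (0.51, adjusted p = 0.0031), ponatinib 10 mg/kg (740.7 ± 120.0 against 490.3 ± 99.3 CPM, 0.60, adjusted p = 0.00045) and L-NAME (0.52, adjusted p = 0.0020). Asgr1 kept its calls in the covariate fit, while Lrp1 kept that with imatinib (-0.51, adjusted p = 0.013) and lost the others, at adjusted p of 0.11 to 0.43.

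Correlations between the 10 genes among mice of a group were weak. Over their 45 pairs the correlation of log2 CPM after subtracting group means had a median of 0.08 and ran from -0.45 for F5 and Procr to 0.45 for F8 and F2r, over 56 mice. Genes nearest to a member, by the same measure over all tested genes, differed between the members. F5 was closest to Apob (r = 0.83), Scarb1 (0.81) and Pzp (0.81), and Lman1 to Copa (0.74), Eif4g1 (0.71) and the pseudogene Gm15519 (0.71). Mcfd2 was closest to Ssr3 (0.65), Calu (0.58) and Pdia3 (0.57). F8 was closest to Col4a2 (0.63), Oit3 (0.58) and Wls (0.57), F2r to Col14a1 (0.64), Clec14a (0.61) and Pam (0.59), and Tfpi to Igsf10 (0.58), Itga8 (0.56) and Acss1 (0.55). Procr was closest to Hmox1 (0.68), Coro1a (0.65) and Cyba (0.64). The nearest genes of Procr (median 17 reads), F8 (59.5 reads) and Tfpi (79 reads) rest on few reads per mouse. For Vwf (Gm6563 0.69, Uevld 0.67, Gm15770 0.66), Thbd (Trmo 0.60, Gm5446 0.58, Dapp1 0.56) and F3 (Timm8a1 0.65, Hexdc 0.59, Kitl 0.58) the nearest genes were named from few reads per mouse, and the Spearman coefficient of Vwf with its nearest gene was 0.27. These values share libraries, depth and scaling, and each is the top of 14314 genes.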

How the data were processed

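Poly(A) mRNA of 56 livers was sequenced on a NextSeq 500. Per the labels, the authors aligned reads to GRCm38 with TopHat2 (version 2.0.14) and Bowtie2 (2.1.0), used SAMtools (0.1.18), and deposited raw HTSeq (0.6.1p1) counts per Ensembl gene and mouse. The annotation release and the strand setting of the counting are not given in the sources used here. Rows that name no gene, 38.9 to 49.8% of the lines counted, stayed out of library sizes. Symbols came from GENCODE vM21 for 44671 of 45513 identifiers. No 2 libraries were identical.

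Counts were tested with edgeR (4.0.16, R 4.3.3) by quasi-likelihood after TMM scaling and its filter on low counts, in 1 fit of all 56 mice without covariates, and p-values were adjusted over 14314 genes. CPM per kb divides CPM by the union of exons in vM21. Correlations used log2 CPM with a prior count of 2. The test was checked on simulated counts with 200 changed genes. Groups were taken from the labels, and no batch is given. Alternatives were RLE scaling, DESeq2 (1.42.0), no filter, only the mice compared, the share of reads outside genes as a covariate, an unadjusted p below 0.01 (the study's threshold), and thinning to 5342379 reads. Leaving out the deepest library, those above 14% outside genes, or the library lowest in endothelial markers was added after seeing the data. The 10 genes and all gene lists were chosen with earlier results of these data known. Named list genes are up to 4 with the smallest p among those called in a comparison. Pros1 with ponatinib 10 mg/kg and Golph3 with L-NAME are named beyond this limit. The nearest genes are the 3 with the highest r. Klkb1, Siglec5 and Muc16 were not found by symbol. Intervals are 95% and rest on the spread between mice, and limits for 0 reads rest on 3 counts. A gene of the list of clearance receptors is not reported here.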

Additional observations from a re-analysis of the deposited data

Results flagged for a closer look

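In 9 of 70 combinations of gene and group, a mouse lay apart from the other 7 by more than Dixon's 95% limit, where chance flags about 1 in 20, or 3.5 of 70. Of these, 3 lay in the ponatinib 10 mg/kg group, each in its highest mouse. They were Lman1 at 329.8 CPM with the next at 220.3, F2r at 20.96 CPM with the next at 12.12, both in replicate 4, and Mcfd2 at 362.3 CPM with the next at 285.9, in replicate 2, the library low in endothelial markers. F2r also had a low mouse with imatinib, at 4.458 CPM with the next at 12.74, and with ponatinib 3 mg/kg, at 3.543 CPM with the next at 12.19. High mice were found for F5 with nilotinib 10 mg/kg (596.7 CPM, next 472.1), Procr with ponatinib 3 mg/kg (10.62 CPM, next 4.933), F3 with imatinib (18.58 CPM, next 8.777) and F3 with L-NAME (18.04 CPM, next 10.11).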

How the results depend on the processing

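No paired analysis was possible because the labels give no replicate numbers that groups share. With the share of reads outside genes as a covariate the number of members called moved to 0 for imatinib, 0 for nilotinib 30 mg/kg, 1 (F2r) for ponatinib 10 mg/kg and 1 (Lman1) for L-NAME. Fitting only the mice compared gave 2 for imatinib (Lman1 added), 1 for ponatinib 10 mg/kg (Lman1 and F8 lost), 4 for L-NAME (Vwf and F2r added) and 0 for ponatinib against nilotinib at 10 mg/kg. At an unadjusted p below 0.01 there were 1 for nilotinib 10 mg/kg, 1 for ponatinib 3 mg/kg, 1 for each dose comparison and 2 for ponatinib against nilotinib at 10 mg/kg. DESeq2 gave 1 for nilotinib 10 mg/kg (Lman1), 1 between the ponatinib doses (F5) and 4 for ponatinib 10 mg/kg (F5 added). Without the libraries above 14% outside genes, a L-NAME, a ponatinib 10 mg/kg and an imatinib mouse, imatinib had 0. Without the library low in endothelial markers F5 was called between the ponatinib doses, 1 member, and against control at 10 mg/kg (-0.32, adjusted p = 0.033). The cause was not tested. The covariate also lowered calls over all genes, from 1877 to 369 with ponatinib 10 mg/kg and from 1688 to 258 with L-NAME. No called member changed direction in any alternative. Calls of F2r with ponatinib 10 mg/kg and Lman1 with L-NAME held in all 9 alternatives that refit the counts. F8, Vwf, Thbd, Procr, F3 and Tfpi had a median of 17 to 79 reads per library, which limits the size of difference that could be found.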

Other observations

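Of 12 pan-endothelial markers, 11 had estimates above 0 with nilotinib 30 mg/kg (median log2 fold change 0.35), and all 12 were below 0 for ponatinib against nilotinib at 10 mg/kg (median -0.50). Egfl7, a secreted endothelial protein gene, was higher than in control mice (28.6 ± 4.46 CPM, mean ± SD, n = 8) with nilotinib 30 mg/kg (57.7 ± 15.8 CPM, log2 fold change 1.01, adjusted p = 0.0013), L-NAME (53.1 ± 9.44 CPM, 0.89, adjusted p = 0.0017), nilotinib 10 mg/kg (0.77, adjusted p = 0.037) and imatinib (0.66, adjusted p = 0.025), in edgeR's quasi-likelihood test. It was the 1 pan-endothelial marker of 12 called in each of these groups. In the same order, 5.77%, 11.8%, 1.41% and 10.3% of all tested genes were called. Once the share of reads outside genes was a covariate, Egfl7 was called in none of the groups (adjusted p of 0.052 to 0.21). Cldn5, a tight junction gene, was lower with ponatinib than with nilotinib at 10 mg/kg (3.71 ± 2.13 against 13.4 ± 7.14 CPM, -1.85, adjusted p = 0.0062). Platelet genes were higher in places. Itga2b, the platelet integrin gene, stood at 8.77 ± 4.32 CPM with ponatinib 10 mg/kg and 7.88 ± 3.58 with L-NAME against 3.78 ± 1.80 in control mice (1.21 and 1.06, adjusted p = 0.013 and 0.032), and the summed platelet markers ran from 44.4 to 82.2 CPM in L-NAME mice, above all control mice (18.5 to 43.9). With imatinib the sum of monocyte and neutrophil markers ran from 102.0 to 215.6 CPM against 152.5 to 446.5, and the lysozyme gene Lyz2 was the marker called (-1.43, adjusted p = 0.00036). Cholangiocyte marker sums ran from 145.9 to 369.5 CPM in control mice and from 217.0 to 255.5 with ponatinib 10 mg/kg, where Aqp1 was lower (-0.89, adjusted p = 0.0083). The mesothelial list held 1 called gene, Dpp4, lower with nilotinib 30 mg/kg, ponatinib 10 mg/kg and L-NAME (-0.41, -0.33 and -0.35). The same covariate ended the calls of Itga2b, of Dpp4 and of Aqp1 with ponatinib 10 mg/kg, and those of Lyz2 and Cldn5 held.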
